A study of Mus musculus with 16 samples.

Results

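Baseline transcript levels in the brain of wild type mice were described from the 4 wild type animals of a series of 16, over all 770 genes of the nCounter Neuropathology panel. The wild type animals were those whose genotype label reads WT, and no measured value was used to choose them. All 16 animals were female mice aged 6 months, kept under the same housing conditions, and the other 12 comprised 4 Grn knockout, 4 Trem2 knockout and 4 Grn/Trem2 double knockout animals. Grn encodes progranulin, a secreted and lysosomal protein, and Trem2 encodes a lipid-sensing receptor of microglia. The sources used here do not give the strain.

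The RNA came from the total brain, so each value is a sum over neurons, glia, vessels and blood, and a brain region rich in one cell type counts by its mass. Neurons signal through glutamate and GABA receptors assembled from subunits of large gene families, and the subunits present set the kinetics and pharmacology of a synapse. Astrocytes clear glutamate and ions, oligodendrocytes wrap axons in myelin, and microglia are the resident phagocytes. In such bulk RNA, fewer cells of a type and less RNA per cell cannot be told apart. The assay counts barcoded probe pairs hybridized to single transcripts without amplification. Each gene has 1 row, so levels do not scale with transcript length, but differences in capture between probes are part of every comparison between genes. Values are normalized counts, as mean ± SD over the 4 wild type animals (n = 4), and 4 values given in a row are wild type replicates 1 to 4.

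The genotype label held. Grn measured 662, 565, 594 and 647 normalized counts in the wild type animals, against a median of 19.0 over the 12 animals of the other genotypes, which include the 4 Trem2 knockouts with an intact Grn gene. Trem2 measured 160, 128, 144 and 140 normalized counts, against a median of 18.9 in the same 12 animals, 4 of which have an intact Trem2 gene. Replicate numbers only name an animal. All spreads and p-values below measure differences between these 16 brains, with no record here of the lane, cartridge or day of each run.

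Between 594993 and 681921 panel counts were obtained per wild type animal, and log2 values of any 2 wild type animals correlated across genes with a Pearson r of 0.988 to 0.993. The 8 negative control probes, which have no target in the sample, averaged 14.6 to 19.9 counts per animal. A gene counted as above background in an animal when it exceeded that animal's average negative control by more than 2 SD, a threshold of 29.2 to 39.1 normalized counts. Negative controls were higher in wild type (18.3 ± 3.003 on the scale of the gene values) than in the 12 knockout animals (14.1 ± 1.96), with a two-sided exact permutation p of 0.0121 over 1820 arrangements, although the ranges overlapped. Above the threshold lay 655 to 670 genes in wild type animals and 659 to 714 in knockout animals (exact permutation p = 0.00879). The threshold is set from the same negative controls, so this count and its p-value are not a separate result about the genes. Sums of the positive controls ranged from 19912 in replicate 4 to 45949 in replicate 3.

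The most abundant transcripts in wild type brain encoded parts of the proton pump of vesicles and lysosomes, calcium signalling proteins, the vesicle release machinery, and secreted or surface proteins linked to neurodegeneration. Atp6v0c, the proteolipid subunit of the proton channel of the vacuolar ATPase, was first at 13653 ± 689 normalized counts, with 14118, 14217, 13562 and 12714 in the single animals. App, the amyloid precursor, averaged 12785 ± 603, and Clu, the extracellular chaperone clusterin, 12585 ± 570. Slc1a2, the main astrocytic glutamate transporter, was also among the first 5 at 11549 ± 339. The ranges of Atp6v0c, App and Clu overlapped, so their order is not separated by the spread between animals. Each animal's value of Slc1a2 was below every value of Atp6v0c, and all these genes lay above the highest value of Prnp, the prion protein gene, which reached 10107 in replicate 4 and averaged 8995 ± 758.

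Ppp3ca, a catalytic subunit of the calcium-dependent phosphatase calcineurin, averaged 8885 ± 595 normalized counts. Rab3a, a GTPase of synaptic vesicles, averaged 8718 ± 802, and Nsf, the ATPase that takes apart SNARE complexes after fusion, 8625 ± 313. Nptn, an adhesion protein of synapses, completed the first 10 genes with 8439 ± 873. These 10 of 770 genes held 15.6 ± 0.343% of the panel counts, the first 20 held 24.1 ± 0.355%, and 73 to 76 genes held 50% in any animal. The genes ranked 11 to 20 included Trf, Thy1, Rab2a, Map2, Rtn4, Atp6v1e1, Sod1, Prkcb and Ppp2ca, from 6982 ± 997 for Trf, the iron carrier transferrin, to 5092 ± 354 for Ppp2ca, a catalytic subunit of protein phosphatase 2A. The same 20 genes led in the 12 knockout animals, and the order of all 770 genes was nearly the same there (Spearman's rho of 0.998 across genes, a description of values that share probes).

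**Figure D1:**
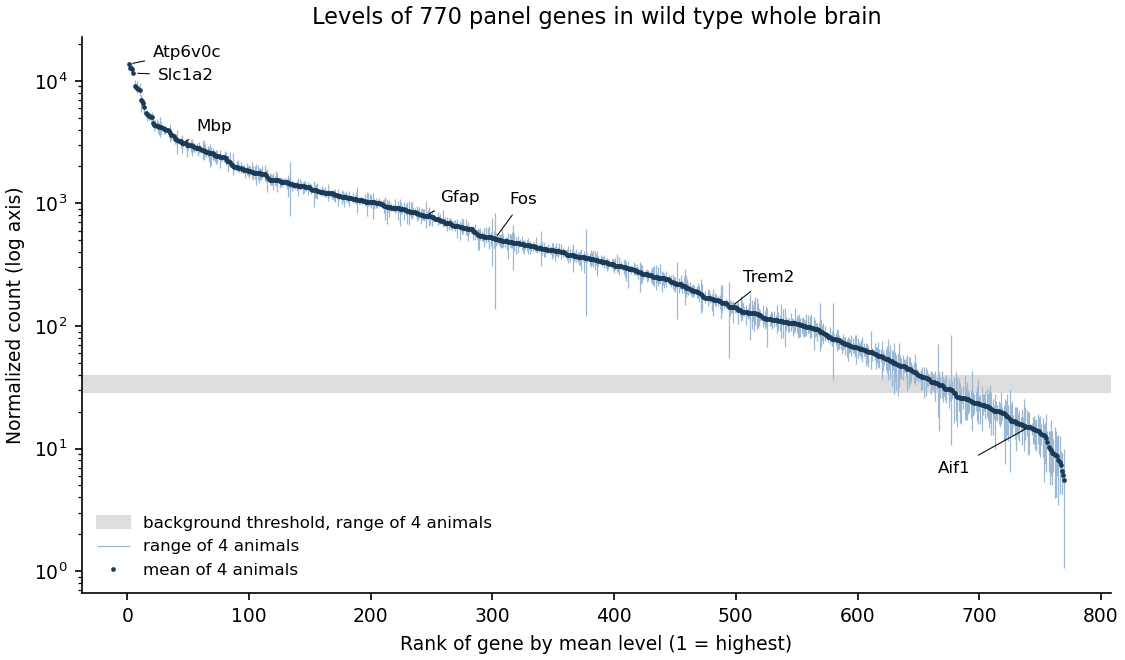
Mean normalized count of each of the 770 panel genes over 4 wild type animals (points) with the range of the animals (vertical lines), ordered by rank, on a log axis. The median gene lies at 344 normalized counts, and the lowest genes cross the grey band, the thresholds of the 4 animals from 29.2 to 39.1, with wider ranges between animals.

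The median gene averaged 344 normalized counts, and the middle of the distribution ran from 80.5 at the 25th percentile to 1056 at the 75th. In all, 206 genes averaged above 1000 normalized counts, 349 between 100 and 1000, and 215 under 100. From the threshold to the highest gene the panel spanned at least 399.7-fold.

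At the other end, 87 genes were above the background threshold in none of the 4 wild type animals and 41 in 1 to 3 of them, which left 642 detected in all 4. The lowest gene means fell among or under those of the negative control probes: 85 genes averaged within the range of the 8 control probes (8.77 to 29.0) and 7 below all of them. The 20 lowest included secreted factors and their receptors, with Egf at 5.57 ± 4.52, Epo at 6.62 ± 2.08, Il10 at 7.74 ± 3.66 and Il1b at 12.3 ± 5.21 normalized counts. Genes of tissues or cells outside the brain parenchyma were there too: Gngt1, a transducin subunit of rod photoreceptors, at 8.83 ± 5.58, Calm4, a calmodulin-like gene of skin, at 6.06 ± 0.662, Prf1, the perforin of cytotoxic lymphocytes, at 9.14 ± 2.28, and Marco, a macrophage scavenger receptor, at 13.1 ± 2.68. Trem1, a receptor of blood myeloid cells, averaged 8.05 ± 5.03. All 20 means lay under the average negative control level of 18.3, so these genes have no order among themselves, and a transcript present below this background was not detectable at this depth.

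The threshold itself cut through a continuous run of weak genes. The 10 genes just under the mean threshold of the animals ended with Uchl1 at 34.03 ± 3.18 normalized counts, and the 10 just over it ran from Casp1, the inflammasome caspase, at 34.3 ± 7.40 to Sncaip, a synuclein-binding protein, at 38.1 ± 9.46. Each of these 20 genes was above its animal's threshold in 3 animals at most. Uchl1 encodes a deubiquitinating enzyme that is abundant in neurons as a protein, yet its row read 38.3, 33.0, 30.7 and 34.2, rank 665 of 770, and 23.1 to 41.3 in the knockout animals. Icam1, an endothelial and immune adhesion receptor, stood out in replicate 1, with 71.9, 17.99, 21.8 and 23.5 normalized counts.

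Ranking within 54 gene families (199 measured members) gave 145 pairs of neighbours in rank. In 97 pairs the ranges of the 4 animals did not overlap, and these pairs are called apart. The other 48 overlapped, and their order by mean is not separated by the spread between animals. In 26 families every neighbouring pair was apart. Of the 199 members, 19 in 11 families were above background in no wild type animal. Folds between members below compare probes as well as transcripts.

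Among glutamate receptors, the 4 AMPA subunits measured, which carry fast excitatory transmission, lay close together, and each overlapped with its neighbour in rank: Gria1 averaged 1828 ± 132 normalized counts, Gria3 1763 ± 293, Gria2 1464 ± 293 and Gria4 1285 ± 146. NMDA receptor subunits spread far more widely. Grin2b measured 1120, 961, 835 and 1354 normalized counts, and the obligatory subunit Grin1 1023, 960.2, 806 and 675, so these overlapped. Grin2a followed at 282 ± 16.6, a 3.07-fold step below Grin1 with no overlap, then Grin2c, a subunit known from cerebellar granule cells, at 198 ± 13.3 and Grin2d at 84.2 ± 5.61. Grin3b, at 21.6 ± 7.80, was above background in 1 animal. Of the metabotropic receptors, Grm5 led at 1109 ± 169, Grm2 averaged 294 ± 62.4 and Grm8 was lowest at 114 ± 10.4, and the ranges of these 3 did not overlap.

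Of the GABA A receptor subunits, Gabrb2, a common subunit of the adult brain, averaged 2615 ± 205 normalized counts and Gabra4 1023 ± 124, without overlap. The rho subunits Gabrr3 and Gabrr1, known from the retina, and Gabrp were at background in every wild type animal, with means of 18.4 ± 6.53, 9.97 ± 4.16 and 9.21 ± 4.19. The GABA-synthesizing enzymes Gad2 (2453 ± 262) and Gad1 (2013 ± 395) overlapped.

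Receptors for modulatory transmitters were also measured. Drd1, the D1 dopamine receptor of striatal direct-pathway neurons, averaged 523 ± 185 normalized counts, 4.09-fold over Drd2 at 128 ± 32.4, while Drd4 was above background in no animal. The adenosine receptor Adora1 averaged 334 ± 26.1 and its striatal relative Adora2a 128 ± 49.3. Htr1a, a serotonin receptor, was at 244 ± 29.6 and Htr5a at 124 ± 23.6, without overlap. The nicotinic subunit Chrnb2 (455 ± 23.6) was 1.48-fold over Chrna7 (309 ± 21.4), and the adrenergic receptor Adra2a averaged 318 ± 31.0.

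Calcium entry and release genes were led by 1 member each. Cacna1a, the pore of P/Q-type channels that trigger transmitter release, averaged 1061 ± 65.6 normalized counts, 4.30-fold over the N-type pore Cacna1b at 246 ± 42.4. The L-type pores Cacna1d and Cacna1c, at 224 ± 32.3 and 188 ± 23.8, overlapped with each other, and Cacna1f and Cacna1s, the pores of retina and skeletal muscle, were at background in all 4 animals. Itpr1, the IP3 receptor known for its high level in Purkinje cells, averaged 3219.7 ± 154, 8.75-fold over Ryr2, a ryanodine receptor, at 368 ± 38.6. Itpr2 (107 ± 5.27) and Ryr1 (80.3 ± 1.43) were apart as well, and Itpr3 and Ryr3 were each above background in 1 animal.

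Genes of vesicle release and signalling were ordered more sharply in some families than in others. Stx1a, a syntaxin of the presynaptic membrane, measured 1325, 1384, 929 and 1529 normalized counts, 12.3-fold over Stx2 at 105 ± 15.3, with no overlap. The calcium sensors Syt1 (2992 ± 394), Syt4, Syt13 and Syt7 (1482 ± 114) all overlapped with their neighbours. Calcineurin catalytic subunits fell from Ppp3ca through Ppp3cb (3373 ± 297) to Ppp3cc (518 ± 71.4), all apart. Prkcb led the protein kinase C genes at 5104 ± 300, followed by Prkce (2719 ± 425), Prkca (946 ± 177) and Prkcq, the isoform of T cells, at 101 ± 12.9. The G protein subunits Gnao1 (3217 ± 135) and Gnai1 (3207 ± 265) were level, and Gnai2, Gnaq and Gnai3 followed at 2386 ± 107, 1407 ± 73.7 and 423 ± 41.0, each apart from the one above.

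Vacuolar ATPase subunits differed by isoform. Atp6v0c was 2.54-fold over the next, Atp6v1e1 (5378 ± 479), and the subunits from Atp6v1e1 to Atp6v1d (3352 ± 207) each overlapped with their neighbour. Atp6v0e2 and Atp6v0e encode isoforms of the same small subunit: Atp6v0e2 measured 4479, 4258, 4395 and 4885 normalized counts, and Atp6v0e 131, 119.9, 134 and 134. The Atp6v0e2 values were thus far above those of Atp6v0e in each animal. Atp6v1g2, a neuronal isoform of a different subunit, averaged 2598 ± 319. It stood next above Atp6v0e in rank, 20.1-fold over it, a step between different subunits and not between isoforms.

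Among secreted peptides, Cck, a peptide of cortical neurons, led at 2597 ± 547 normalized counts, followed by Npy at 1028 ± 195 and Vip at 487 ± 95.0, all apart. Avp, the antidiuretic hormone made in the hypothalamus, averaged 144 ± 87.4 and overlapped with Crh, the stress hormone of the hypothalamus, at 77.1 ± 12.9. The neurotrophin Bdnf (184 ± 49.6) was above Ntf3 (53.9 ± 9.84), Gdnf was at background, and so was the receptor Ngfr (25.2 ± 5.43). The antioxidant enzymes Sod1 (5159.9 ± 241) and Sod2 (2609 ± 227) differed 1.98-fold. Psen2, a catalytic subunit of gamma secretase, averaged 128 ± 16.6, and Sncb, the beta-synuclein gene, 1014 ± 84.3.

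A further 6 families were chosen after the values were seen, because they hold several weak members. Of 3 nitric oxide synthases, the neuronal Nos1 averaged 289.9 ± 21.3 normalized counts, and the endothelial Nos3 and inducible Nos2 were at background, so Nos1 was at least 8.49-fold above Nos3. Of the chemokine ligands, Cx3cl1, the neuronal ligand of the microglial receptor Cx3cr1, averaged 3309.9 ± 704 and Cxcl12 657 ± 58.1, while Cxcl10, Ccl12, Ccl5 and Cxcl11 were at background. Il6 had the highest mean of the interleukin and interleukin receptor genes, at 201, 182, 122 and 159. Its range overlapped with that of Il13ra1 (110 ± 13.8), although Il6 was the higher of them in each animal. Of 11 phospholipase A2 genes, Pla2g16 averaged 1025 ± 111 and Pla2g6 168 ± 19.3, and none of the other 9 averaged above the 38.8 ± 6.08 of Pla2g4e.

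**Figure D2:**
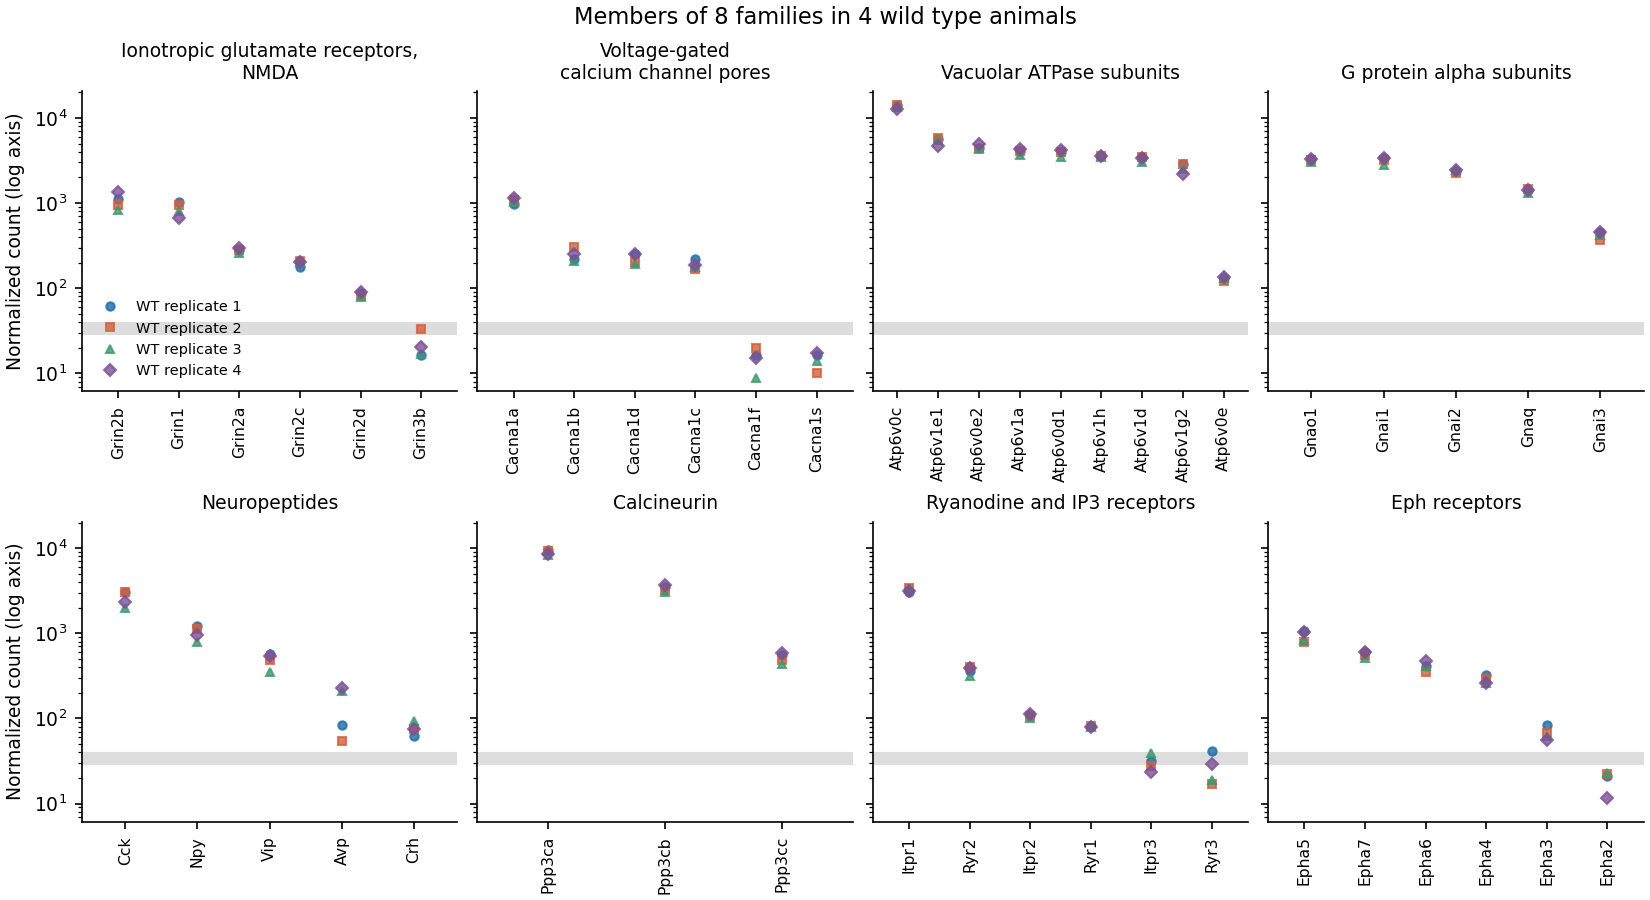
Normalized counts of the members of 8 families in each of 4 wild type animals (symbols) on a log axis, with the background thresholds of the animals as a grey band. Single members lead the calcium channel pores (Cacna1a 1061) and the IP3 and ryanodine receptors (Itpr1 3219.7), and Cacna1f, Cacna1s and Epha2 lie under the band.

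The tissue label was checked against marker genes of the main brain cell types, and neurons, astrocytes, oligodendrocytes, microglia and vessels were all represented. Of 12 pan-neuronal genes measured, 11 were above background in all 4 animals, with Uchl1, described above, as the exception. Their median was 2012 normalized counts, and Map2, a microtubule protein of dendrites, measured 6259, 5661, 5601 and 6963. All 10 measured genes of the 14 on the glutamatergic list were detected, with a median of 987. Slc17a7, Camk2a, Neurod1 and Neurod6 were not measured. Most of the 10 are glutamate receptor subunits or postsynaptic scaffolds, which do not by themselves mark glutamatergic neurons. Their median is therefore not comparable with that of the GABAergic list. Slc17a6, the vesicular glutamate transporter of subcortical neurons, averaged 1373 ± 142, and Tbr1, a transcription factor of deep cortical layers, 275 ± 62.5. All 9 GABAergic markers were detected, with a median of 1759. Pvalb, the calcium buffer of fast-spiking interneurons, averaged 2593 ± 380, Calb1, also high in Purkinje cells, 2092 ± 58.7, and Slc32a1, the vesicular GABA transporter, 1759 ± 221.

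All 8 dopamine and striatal markers were detected, at a low median of 121 normalized counts. Th, the rate-limiting enzyme of dopamine synthesis, measured 90.4, 45.0, 52.4 and 57.8, and Slc6a3, the dopamine transporter, 58.0, 46.0, 74.2 and 51.3. Of 4 cholinergic and serotonergic markers, Ache and Chat, the enzymes that degrade and make acetylcholine, were detected in all animals at 348 ± 66.2 and 81.7 ± 6.29. The vesicular acetylcholine transporter Slc18a3 and the serotonin transporter Slc6a4 passed the threshold in 3 animals each.

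Glial markers were complete for astrocytes and myelin. All 9 astrocyte markers were detected, with a median of 588 normalized counts. Slc1a2 exceeded the next, S100b, a calcium-binding protein, at 1541 ± 238, in each animal, and Gfap, the intermediate filament, measured 693, 803, 1053 and 628. All 14 oligodendrocyte and myelin markers were detected, with a median of 447. Mbp, a structural protein of compact myelin, was highest at 3105 ± 447, then Mal (1544 ± 115), Mog (1120.2 ± 134) and Bcas1 (1020.2 ± 204). All 3 precursor markers were detected as well, though 2 of them, Sox10 and Olig2, mark the whole lineage, and Cspg4, the NG2 proteoglycan, averaged 66.7 ± 10.5.

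Of 16 microglial markers, 14 were detected in all animals, with a median of 137 normalized counts. Among the highest were the complement chains C1qb (757 ± 43.9) and C1qa (533 ± 23.8), and the growth factor receptor Csf1r (533 ± 77.6). P2ry12, a nucleotide receptor of resting microglia, averaged 131 ± 21.5. The exceptions were Aif1, which encodes the microglial protein IBA1, at 17.4, 8.99, 19.8 and 13.9, and Cd14, the co-receptor for bacterial lipopolysaccharide, at 20.9, 12.0, 18.8 and 10.7. Both were below threshold in every wild type animal. Toll-like receptor genes Tlr4 (28.2 ± 10.5) and Tlr2 (25.8 ± 5.41) were also below it.

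Vessel markers were weak and blood markers had the lowest median of the lists. Of 12 endothelial and mural markers, 9 were detected in all animals, with a median of 105 normalized counts. Cldn5, a tight junction protein of the blood-brain barrier, was highest at 461 ± 51.1, and the endothelial genes Erg and Nos3 were below background in all 4. Of 4 markers of blood leukocytes, Cd8a, Ccr2 and Itgal were below background in every animal. Cd4 measured 58.0, 49.0, 58.4 and 29.9, all above the animal's own threshold. None of 8 choroid plexus and ependymal markers is among the genes of the panel, so that tissue was not checked.

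**Figure D3:**
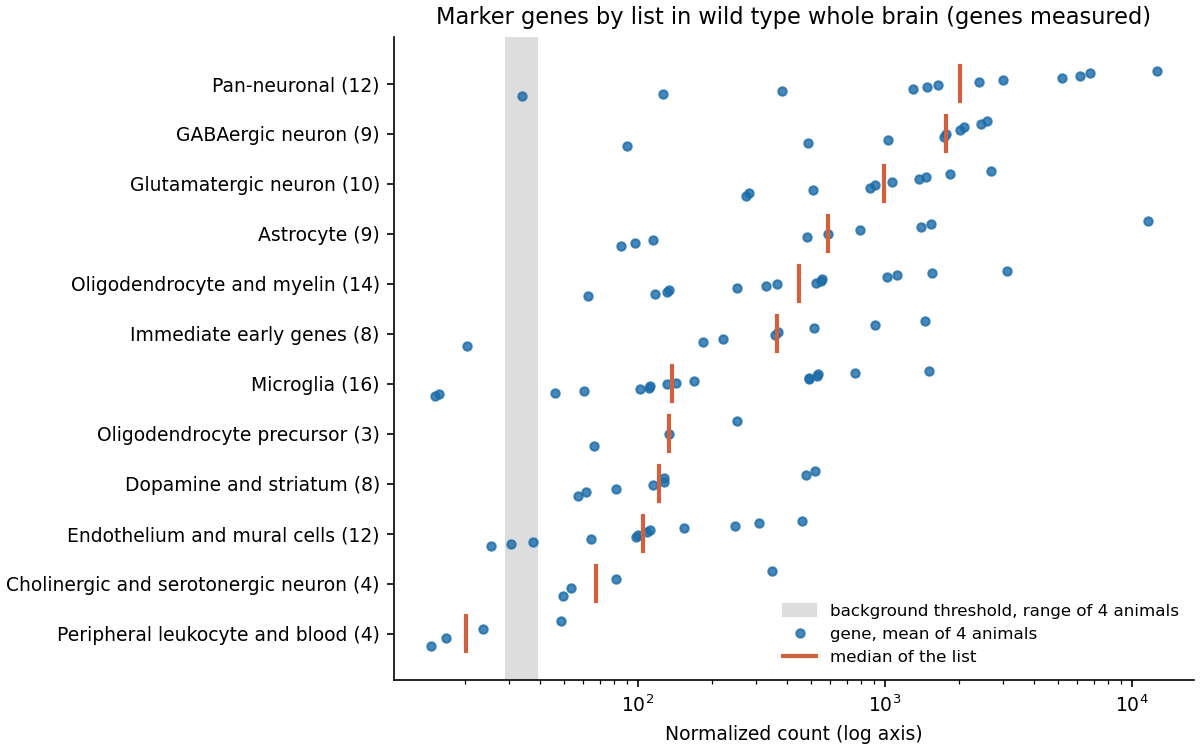
Mean normalized count of every measured marker gene over 4 wild type animals (points), by marker list with the number of genes measured, on a log axis; orange bars are list medians and the grey band is the range of the background thresholds. Pan-neuronal markers have the highest median (2012) and blood leukocyte markers the lowest (20.2), which lies under the band.

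Most detected genes varied little between the wild type brains. Over the 642 genes detected in all 4 animals the SD of log2(value + 1) had a median of 0.14, where counting error alone gave a median of 0.07, and the median coefficient of variation was 9.77%. In 93 genes the SD was no larger than counting error, and in 318 it was more than 2 times as large. The tightest was Gsr, glutathione reductase, with 405, 397, 405 and 406 normalized counts, and Twistnb, a subunit of RNA polymerase I, was also among the tightest, with 306, 305, 305 and 312. The median SD of the same genes was 0.13 in Grn knockouts, 0.14 in Trem2 knockouts and 0.12 in double knockouts.

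In 10 genes the SD of log2(value + 1) reached 0.5, and 4 of them, Fos, Arc, Egr1 and Npas4, belong to the list of immediate early genes, which neurons switch on rapidly after activity. Fos, a subunit of the AP-1 transcription factor, measured 698, 138, 391 and 835 normalized counts (SD 1.17 on the log2 scale, against 0.08 from counting). Arc, a regulator of AMPA receptor traffic at synapses, measured 613, 119.9, 239 and 466 (SD 1.05). Egr1, a zinc finger transcription factor, measured 2182, 794, 911 and 1914 (SD 0.74). In these genes replicates 1 and 4 were high and replicate 2 was the lowest. Npas4, an activity-dependent transcription factor of neurons, measured 246, 113, 196 and 329 (SD 0.65). Nr4a2, listed here among dopamine markers, is an orphan nuclear receptor needed by dopamine neurons and also inducible by activity, and measured 546, 288, 412 and 663 (SD 0.52). Both repeated the high values of replicates 1 and 4 and the low value of replicate 2.

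**Figure D4:**
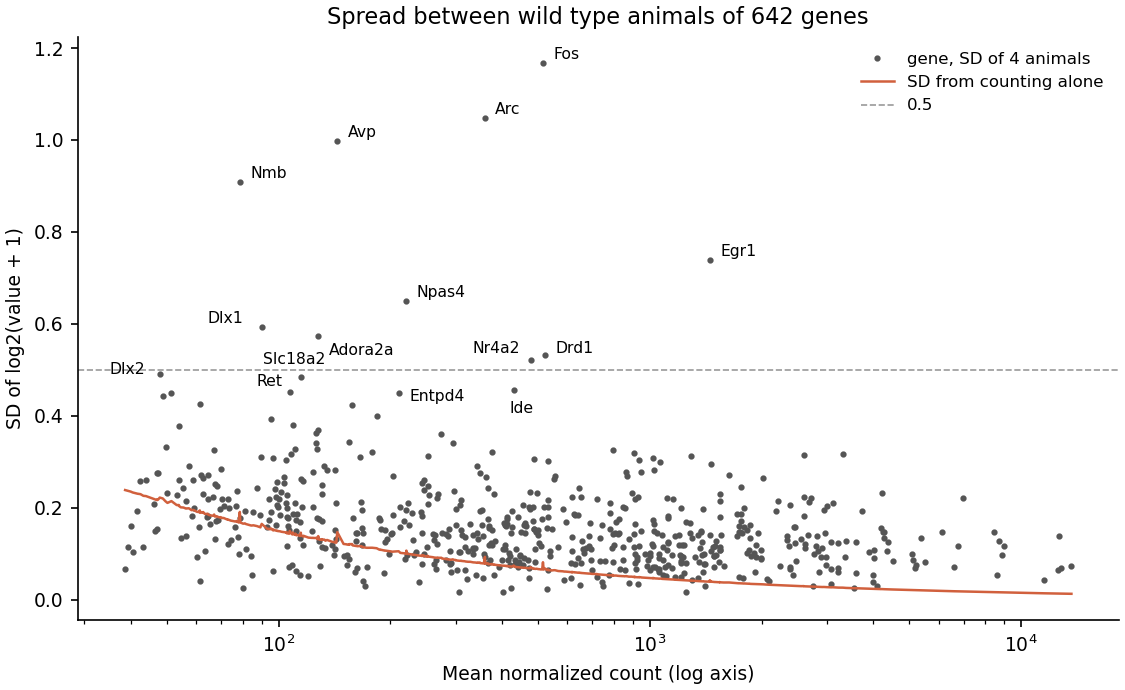
SD of log2(value + 1) over 4 wild type animals against the mean normalized count (log axis) for the 642 genes detected in all 4, with the SD given by counting alone (orange line) and 0.5 as a dashed line; the 15 genes with the largest SD are named. Fos (1.17), Arc (1.05), Avp (0.998) and Nmb (0.91) stand far above the median of 0.14.

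The list of immediate early genes, which holds 4 of these 5 genes, was higher in replicates 1 and 4 than in replicates 2 and 3. All 8 of 8 measured members were above their own 4-animal mean (log2) in replicate 1 and again in replicate 4, and 0 of 8 in replicates 2 and 3. The lowest value was in replicate 2 for 6 members and in replicate 3 for the other 2, Homer1 and Bdnf. Over all 642 detected genes, 373, 265, 223 and 433 were above their own mean, so the panel leaned the same way. The summed level of the 8 list members was 5458, 2519, 2889.6 and 5236 normalized counts. In the 12 knockout animals this sum was 2002 to 4453, with a median of 3826. The 2 highest sums among 16 animals were thus wild type. The median deviation of the animals on the log2 scale was 0.38, -0.79, -0.24 and 0.54 over the 8 list members and 0.02, -0.03, -0.05 and 0.07 over the 642 genes. The part of the lean of the whole panel in the list's values was not tested. Members differed in size: Jun, another AP-1 subunit, measured 410.3, 314, 350.1 and 396, and Homer1, a scaffold of metabotropic receptors, 1079, 866, 659.6 and 1026. Bdnf, whose transcription rises with activity, measured 203, 164, 127 and 242, while Egr2 was above background in no animal. How the animals were handled before the brain was taken is not stated in the sources used here, and its part in these values was not tested.

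The sequence before the transcription start is shown for 4 of these genes, those with a single start in the RefSeq promoter table of GRCm38.p6. All 4 were higher in replicates 1 and 4 than in replicates 2 and 3, Jun with a smaller SD of 0.18. Many activity-induced genes are bound by the factor CREB, whose element TGACGTCA contains the shorter site TGACG. Capitals mark TGACG on either strand, read as TGACG or CGTCA, and each window ends at the base before the start.
Fos, chr12:85473640-85473889, plus strand: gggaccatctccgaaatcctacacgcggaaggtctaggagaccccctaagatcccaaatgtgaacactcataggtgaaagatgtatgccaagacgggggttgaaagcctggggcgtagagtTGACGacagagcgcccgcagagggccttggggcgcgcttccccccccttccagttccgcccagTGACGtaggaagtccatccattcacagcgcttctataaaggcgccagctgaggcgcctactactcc
Npas4, chr19:4989972-4990221, minus strand: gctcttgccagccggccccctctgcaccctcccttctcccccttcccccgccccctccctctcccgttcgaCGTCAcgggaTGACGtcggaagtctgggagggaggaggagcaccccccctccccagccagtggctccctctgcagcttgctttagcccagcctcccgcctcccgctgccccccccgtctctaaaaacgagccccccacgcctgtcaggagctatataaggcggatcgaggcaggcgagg
Nr4a2, chr2:57124004-57124253, minus strand: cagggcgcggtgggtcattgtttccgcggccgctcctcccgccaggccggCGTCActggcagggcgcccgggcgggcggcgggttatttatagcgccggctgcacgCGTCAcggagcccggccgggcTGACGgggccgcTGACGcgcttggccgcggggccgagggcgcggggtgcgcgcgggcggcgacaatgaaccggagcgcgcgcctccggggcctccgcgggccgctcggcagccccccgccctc
Jun, chr4:95052223-95052472, minus strand: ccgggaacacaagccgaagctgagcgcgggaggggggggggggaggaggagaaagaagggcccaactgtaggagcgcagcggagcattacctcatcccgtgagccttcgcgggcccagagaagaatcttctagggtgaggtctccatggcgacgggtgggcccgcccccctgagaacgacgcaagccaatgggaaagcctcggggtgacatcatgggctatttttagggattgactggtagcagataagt
Fos held 2 such matches, beginning 129 and 66 bases before the start, and Npas4 held 2, at 179 and 169 bases. Nr4a2 held 4, from 200 to 111 bases, and Jun held no exact match. Similar sequences, such as tgacatca in the Jun window, were not searched for, so Jun is not shown to lack a site of this type. Among all 32851 windows of this length in the table, 17.8% held at least 1 match and 3.90% at least 2. The full TGACGTCA was in none of the 4 windows and in 1.55% of all windows. Of the list members with several starts, 1 of 7 Bdnf windows, 1 of 2 Homer1 windows and 3 of 5 Egr2 windows held TGACG. These matches are letters in a window and were not measured as binding, and their relation to the spread of a gene was not tested. Arc and Egr1 are named only.

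The other genes with a large spread did not share 1 pattern. Avp measured 83.5, 55.0, 209.7 and 228 normalized counts (SD 0.998), with replicates 3 and 4 high, and 26.1 to 152 in the knockout animals. Nmb, the peptide neuromedin B, measured 154, 37.0, 45.5 and 78.1 (SD 0.91). Dlx1, a transcription factor of forebrain interneurons, measured 153, 62.0, 65.3 and 80.2 (SD 0.59), and its neighbour in the genome Dlx2 73.0, 32.0, 40.6 and 46.0 (SD 0.49). In both Nmb and Dlx1 replicate 1 was the highest and replicate 2 the lowest. The striatal receptors Drd1 (760.3, 309, 526 and 495) and Adora2a (183, 76.9, 154 and 97.3) were likewise highest in replicate 1 and lowest in replicate 2. Of the 50 detected genes with an SD of at least 0.3, 23 were highest in replicate 1 and 20 were lowest in replicate 2. Neither position was thus particular to the genes named here. Slc18a2, the vesicular monoamine transporter, ran differently, with 67.2, 117, 139 and 136. Ret, a receptor for GDNF family ligands, resembled it, with 67.2, 103, 118 and 141.

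Large spreads recurred in many of the same genes in the other genotypes. Of the 15 genes with the largest SD in wild type, 9 were also among the 15 with the largest pooled SD within the knockout genotypes and 13 among the first 50. Across the 642 genes the 2 SDs had a Spearman's rho of 0.58, given as a description, since both also depend on the level of the gene. At the threshold of 0.5 there were 11 such genes in the knockouts, 5 of them shared with the 10 of wild type.

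Among marker lists, myelin genes ordered the animals as well. All 14 of 14 oligodendrocyte and myelin markers were lowest in replicate 1, as were 135 of all 642 detected genes. Mbp measured 2566 normalized counts there, against 3256, 3624 and 2973 in the others. Myrf, the transcription factor that drives myelin genes, measured 416, 584, 597 and 613, and Mag, an adhesion protein of the inner myelin layer, 416, 592, 585 and 629.9. The summed level of the 14 genes was 8073, 10051, 10855 and 10279. Trf, outside the list and made mainly by oligodendrocytes in brain, measured 5519, 7200.3, 7704 and 7506. The summed level of the 8 dopamine and striatal markers was 1939, 1064, 1604 and 1674, with replicate 2 lowest. Drd1 and Nr4a2, both described above for their spread, had the highest means of the 8 and weigh most in this sum. By gene, replicate 2 was lowest in 5 of the 8, replicate 1 in 2 and replicate 4 in 1. All 4 of 4 cholinergic and serotonergic markers were highest in replicate 3, where 83 of the 642 detected genes were highest, and 2 of the 4, Slc18a3 and Slc6a4, were above background in only 3 animals. The summed level of the microglial markers was 5322, 5169.9, 5127 and 5253, a 1.04-fold range, while single members had a median SD of 0.16 on the log2 scale. Whether the brains differed in the regions or cells sampled was not tested.

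**Figure D5:**
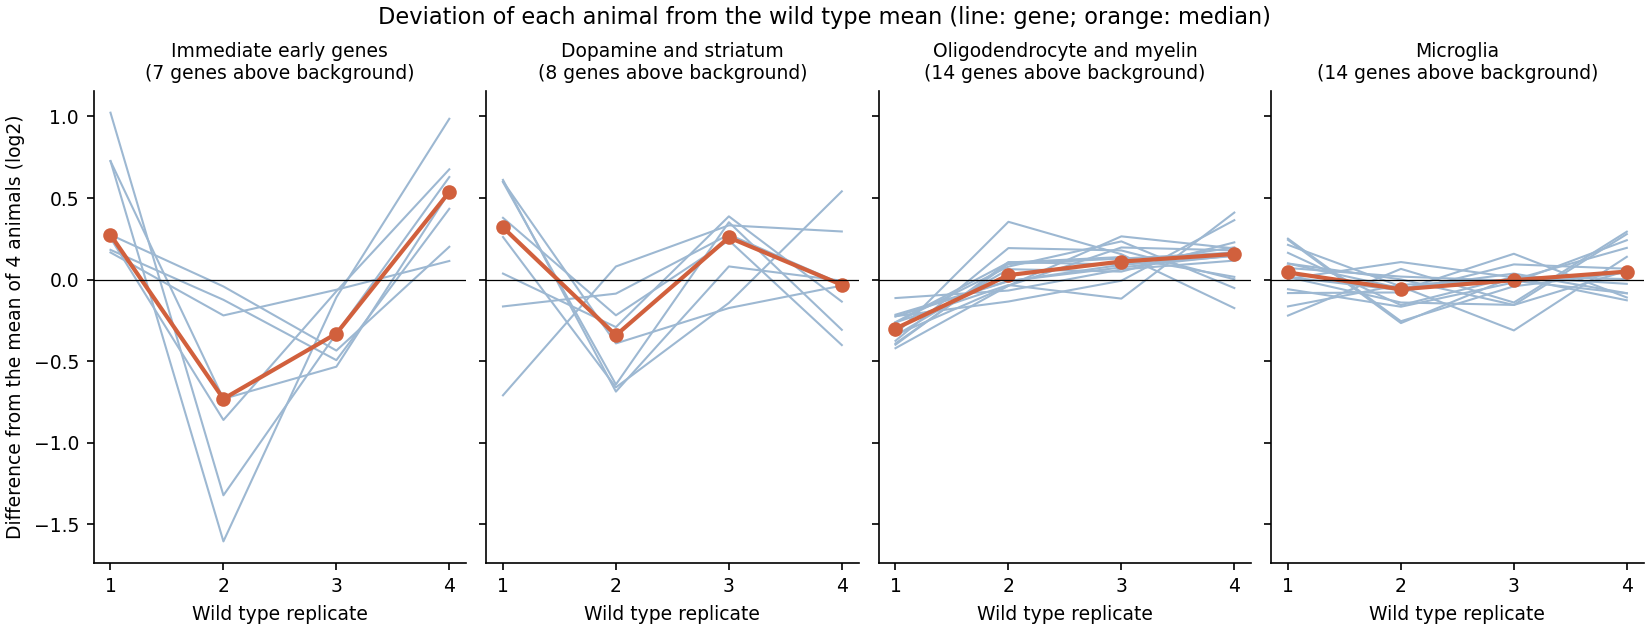
Difference of each wild type animal from the 4-animal mean on the log2 scale for 4 marker lists, for genes above background in all animals; each pale line joins the values of 1 gene, orange points are medians, and the replicates have no order. Immediate early genes are high in replicates 1 and 4, the 14 myelin genes are lowest in replicate 1, and the medians of the microglial genes stay near 0 while single genes lie up to 0.31 from it.

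Set against the mean of the 3 knockout groups, wild type differed past the threshold in the 2 deleted genes and in no other gene tested. In a limma fit of all 16 animals (wild type minus the mean of the 3 knockout groups, 708 genes with a mean of at least 20), 2 genes passed an adjusted p of 0.05 after Benjamini-Hochberg adjustment, or 0.282% of those tested. These were Grn, higher in wild type by 3.55 on the log2 scale (SE 0.15, adjusted p = 3.26e-10), and Trem2, higher by 1.97 (SE 0.31, adjusted p = 0.0056). Each contrast averages over a knockout group with the gene intact, so it understates the loss in the animals that lack it. For any gene, a change in a single knockout genotype, or in opposite directions, is likewise averaged down. Wild type was not compared here with each knockout genotype by itself. At an unadjusted p under 0.05 there were 47 genes, these 2 included. In 0 of 708 genes did the 4 wild type animals lie outside the range of all 12 others.

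The next genes in this limma fit missed the threshold. By p-value they were Il15ra, an interleukin 15 receptor subunit, Gata2, a transcription factor, Tie1, an endothelial receptor kinase, and Cd68, each with an adjusted p of 0.181. Il15ra was higher in wild type by 0.43 on the log2 scale (SE 0.10), Gata2 by 0.46 (SE 0.11) and Tie1 by 0.43 (SE 0.11). Cd68, a lysosomal protein of phagocytes, was lower in wild type by 0.36 on the log2 scale (SE 0.09), with 131, 91.9, 107 and 113 normalized counts. Mal, a myelin proteolipid, was higher by 0.38 (SE 0.10, adjusted p = 0.186). None of the 12 marker lists held a called gene apart from Trem2 in the microglial list. All 14 myelin markers had a higher mean in wild type, with a median difference of 0.17 on the log2 scale and 3 of them at an unadjusted p under 0.05, and so did all 12 endothelial and mural markers (median 0.18, 2 of them at an unadjusted p under 0.05). Over all 708 genes tested the median difference was 0.01 and 387 were higher in wild type. The background reading beside these values was also higher in wild type, as given above, and its part in the weak genes was not tested.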

How the data were processed

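The authors deposited 1 normalized signal per gene for 770 genes, with 6 positive and 8 negative controls, in each of 16 animals. The sources used here name neither the software nor the normalization. Read from the values, each wild type gene value is a whole count times 1 factor per animal (0.989 to 1.16), within 0.0075 counts, and the geometric mean of 10 reference genes is equal in all animals. Control probes are unscaled and no background was subtracted, so weak genes include background. All 4 wild type columns were used. Symbols matched a RefSeq table of GRCm38.p6 (763 as symbol, 7 as synonym).

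Genes were ranked by mean over the wild type animals. Counting SD was taken from the recovered counts. The comparison of wild type with the knockouts used limma 3.58.1 (lmFit and eBayes) in R 4.3.3 on log2(value + 1), with 4 group means, two-sided; a fold on this scale understates changes of weak genes. The spread and fit steps were tested on simulated data. Other work used Python 3.11.15 and scipy 1.17.1. Alternatives were other pseudocounts, filters, thresholds and scalings, background subtraction and leaving out animals.

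The members, gene families and marker lists were chosen with earlier results of these data known. Genes named are the 20 highest and 20 lowest, members of the families described, the 4 highest of each marker list and members not above background, the 15 largest and 10 smallest SDs, the 10 on either side of the threshold, Grn and Trem2. A few further markers, Icam1, Cd68, Gata2, Il15ra, Tie1, Mal and 6 families were named after their values were seen. Some genes covered by this rule are not reported here.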

Additional observations from a re-analysis of the deposited data

Results flagged for a closer look

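In 15 genes 1 wild type animal stood far from the other 3, by its gap to the nearest animal as a share of the whole range. Genes of the families, marker lists and rankings were examined (356, with 6 measures per animal), and chance gives about 1 in 20 such cases, so 15 of 362 is no more than that share. No explanation was tested.

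In replicate 1, Fn1, the matrix protein fibronectin, was high at 318.74 normalized counts (219.54 to 224.82 in the others) and Ep300, a histone acetyltransferase, at 513.46 (452.92 to 461.63). Myrf was low there at 416.1 (583.54 to 612.74), as was Grin2c at 178.49 (203.18 to 205.84).

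In replicate 2, Chrna7 was low at 276.78 (316.45 to 321.88), Cdk2, a cell cycle kinase, at 15.99 (27.82 to 31.01) and Pla2g4a, a phospholipase, at 35.97 (39.41 to 39.57). Cdk2 was above the background threshold in only 1 wild type animal. In replicate 3, Syt7 was low at 1313.27 (1522.79 to 1563.55).

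In replicate 4, Akt1, a growth factor signalling kinase, was high at 1207.31 (1080.23 to 1097.69), Pla2g16 at 1190.2 (946.94 to 982.22) and Pla2g6 at 196.76 (157.63 to 158.87). Dbh, the noradrenaline-synthesizing enzyme of brainstem neurons, was low there at 13.9 (37.09 to 41.97), and was above the background threshold in 2 wild type animals. Epha2 at 11.76 (20.86 to 22.74), Nos2 at 7.49 (20.98 to 25.5) and Hc, complement component C5, at 5.35 (14.83 to 15.99) were low as well, all 3 under the background threshold in every animal.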

How the results depend on the processing

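The 20 highest genes, their share of counts and the genes called against the knockouts kept their values under most settings. With the mean of the negative controls as threshold, 19 genes in place of 87 were above it in no wild type animal. Without a filter on background, 36 genes in place of 10 had an SD of at least 0.5. Scaling to the positive controls gave 44 neighbouring pairs of family members apart in place of 97. It also raised the genes with an SD of at least 0.5 from 10 to 517. That scaling also moved the median of all genes in the comparison with the knockouts to -0.31 on the log2 scale. This scaling multiplies all genes of an animal by the same factor, set by its positive control sum. These sums averaged 36423 ± 11370 in wild type and 27932 ± 7210 in the knockout animals. Why the sums differed between animals was not tested. With 6 families added after seeing the data, 109 pairs were apart.

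Leaving out 1 animal at a time, the share of the 10 highest genes was 15.48 to 15.76%, all 20 highest genes stayed, 90 to 94 genes were at background in all remaining animals, 102 to 111 pairs were apart, 8 to 15 genes had a large SD, and negative controls were 2.99 to 5.07 above the knockouts (exact permutation p up to 0.0484). Genes called in the limma fit ranged from 2 to 4: without wild type replicate 1, Pllp and Txnl1 were added, without Grn knockout replicate 2, Gata2 and Mal, and without double knockout replicate 3, which gave 3 genes, Il15ra. Without wild type replicate 2 the SD of Fos fell from 1.17 to 0.57, and without replicate 1 that of Dlx1 from 0.59 to 0.19; in each case 5 of the 15 largest SDs moved by over 1.5 times.

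Subtracting background moved 94 of 220 gene means by more than 1 SD and positive control scaling 98. The planned count tests (edgeR and DESeq2) were not run, since the deposited values are normalized signals and counts recovered from them were used only for depth and counting error. No paired analysis was possible because the replicate numbers were given in accession order and no label ties animals of different genotypes. With 1 probe per gene, 4 animals and a mean background threshold of 34.2 normalized counts, weak genes and small differences are not resolved.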

Other observations

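Ide, which encodes the insulin-degrading enzyme, took values in separate ranges across the 16 animals. In wild type it measured 331, 306, 486 and 597 normalized counts. In the Grn knockout it measured 282, 328, 691 and 332, in the Trem2 knockout 526, 646, 329 and 334, and in the double knockout 290.1, 335, 300.02 and 298. So 11 animals lay between 282 and 335 and 5 between 486 and 691, with animals of both ranges in 3 genotypes. Counting error of Ide in wild type was 0.07 on the log2 scale, against an SD of 0.46. The gene was singled out after its values were seen.

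Entpd4, a nucleotidase of the Golgi and lysosomes, measured 289.8, 239, 147 and 167 in wild type and 170.0 to 339 in the knockouts.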
